A study of Homo sapiens with 4 samples.

Results

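The interferon-stimulated genes followed here are 44 of the 58825 genes counted in LoVo cells, a line established from a human colorectal adenocarcinoma. They were taken as a list of gene symbols, matched to the counted Ensembl genes through their GENCODE version 29 names, and each of the 44 matched a single gene. The list holds transcription factors of the interferon response, RNA sensors, antiviral effectors and the subunits of the immunoproteasome. The study compared MET+ LoVo cells, in which the MET receptor is unprocessed and constitutively active, with MET-KO LoVo cells, in which MET was edited with CRISPR/Cas9, by RNA sequencing of 2 biological replicates a group. The MET+ samples were labelled wild type and described as GFP control. For MET-KO, cells were transfected with a plasmid coding for Cas9 and puromycin resistance, selected with puromycin, and grown from picked single cells, and lines without MET protein were kept after Western blotting. The labels do not say whether both MET-KO replicates come from 1 clone. All cells grew in DMEM with serum, and the protocols of these 4 samples name no interferon or virus.

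As background, interferons are secreted proteins that bind receptors coupled to the kinases JAK1, TYK2 and JAK2. Type I and type III interferons lead to a complex that holds STAT2 and IRF9 and binds the interferon-stimulated response element of target promoters, and type II interferon acts through gamma-activated sites. The induced genes code for proteins that sense or degrade viral RNA, block viral entry and release, conjugate the ubiquitin-like protein ISG15, and present peptides on MHC class I. Many of them also keep a low level in tumor cells that have met no added interferon.

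The MET+ libraries held 8429142 and 10286552 counted reads and the MET-KO libraries 10137583 and 10228991. Levels are given as CPM, counts set to a common library size, after TMM scaling, a correction for library composition. The limit that a count of 0 allows, 3 counts, equals 0.276 to 0.363 CPM on this scale. The libraries were made with QuantSeq, which reads the 3′ end of each mRNA, so counts do not grow with transcript length. MET itself had 338 and 336 CPM in MET+ and 84.4 and 88.9 CPM in MET-KO libraries (log2 fold change -1.96, SE 0.09, edgeR adjusted p = 1.49e-18). Of 10 leukocyte markers, 7 had 0 counts in every library, among them PTPRC, CD3D, CD3E and MS4A1, and the whole list summed to 2 and 3 reads in MET+ and 1 and 8 reads in MET-KO libraries. The 9 fibroblast and endothelial markers summed to 25 and 25 reads in MET+ and 38 and 46 reads in MET-KO libraries, with DCN, COL1A2 and CDH5 at 0. COL3A1 of this list went from 4 and 5 reads in MET+ to 24 and 26 reads in MET-KO (log2 fold change 2.22, edgeR adjusted p = 0.00109), and PECAM1 from 3 and 7 reads to 0. The 8 markers of intestinal epithelium summed to 9648 and 9682 CPM in MET+ and 8321 and 7336 CPM in MET-KO libraries, with KRT20 at 0 in MET+ and at 27 and 28 reads in MET-KO, and LGALS4 at 89 and 107 reads in MET+ and 1 read in each MET-KO library. Of the other epithelial markers, EPCAM (log2 fold change -1.11, edgeR adjusted p = 2.17e-12) and CDH1 (-0.88, 2.11e-09) fell, KRT18 (-0.30) and KRT19 (-0.28) fell by less, KRT8 did not pass, and CDX2 (1.04, 1.93e-10) rose. The part of these marker genes in the results was not tested. In a check for mixed-up samples, 2 of the 4 libraries differed from the other 2 in sex-linked genes, and this split followed the groups, MET-KO against MET+. Whether both groups came from the same stock of LoVo cells was not tested. Median log2 fold changes of whole chromosomes lay between -0.52 on chromosome 14 and 0.50 on chromosome 7. The loss of MET and any other difference between the cells of both groups therefore cannot be told apart.

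Most interferon-stimulated genes differed between MET+ and MET-KO cells, more of them upward than downward. Of the 44 genes, 42 had enough reads to be tested, and HERC5 and PSMB10 did not. In MET-KO cells 25 of the 42 rose and 8 fell at an adjusted p under 0.05 (quasi-likelihood test of edgeR, Benjamini-Hochberg adjustment over 13801 genes), and 9 did not pass. The called share, 78.6%, stands beside 54.1% of all genes tested, the share that rose, 59.5%, beside 27.2%, and the share that fell, 19.0%, beside 26.9%. Their median log2 fold change, always given as MET-KO over MET+, was 0.53, against 0.01 over all genes tested, and 0.78 once the median of its own chromosome was subtracted from each gene. A change of at least 1 log2 unit was reached by 24 of the called genes, 17 upward and 7 downward. This is 57.1% of the 42 beside 24.3% of all genes tested. Among the 24, GBP1, MX2, SAMD9L, IFITM1 and XAF1 had enough reads for testing only in MET-KO, and IFI44L and USP18 only in MET+. OAS2, also among the 24, had enough in both MET-KO libraries but in only 1 MET+ library. The entry of these genes into the test favoured a wide gap between the groups, so these shares are partly set by the filter. When genes short of 10 counts in any library were dropped, 25 of 33 were called, 19 higher and 6 lower. Both MET-KO libraries exceeded both MET+ libraries for 27 of the 42 genes and lay below them for 11, and the groups overlapped for 4. Over all genes tested, separation of this kind held upward for 38.5% and downward for 37.1%. The 44 genes together summed to 1217 and 1269 CPM in MET+ and 2588 and 2488 CPM in MET-KO libraries, a ratio of 2.04. IFITM2 and IFITM3 gave 60.8% of this gain, and the ratio of the other 42 genes was 1.55. In bulk RNA, a change in every cell and a change in the share of cells that express a gene cannot be told apart.

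**Figure D1:**
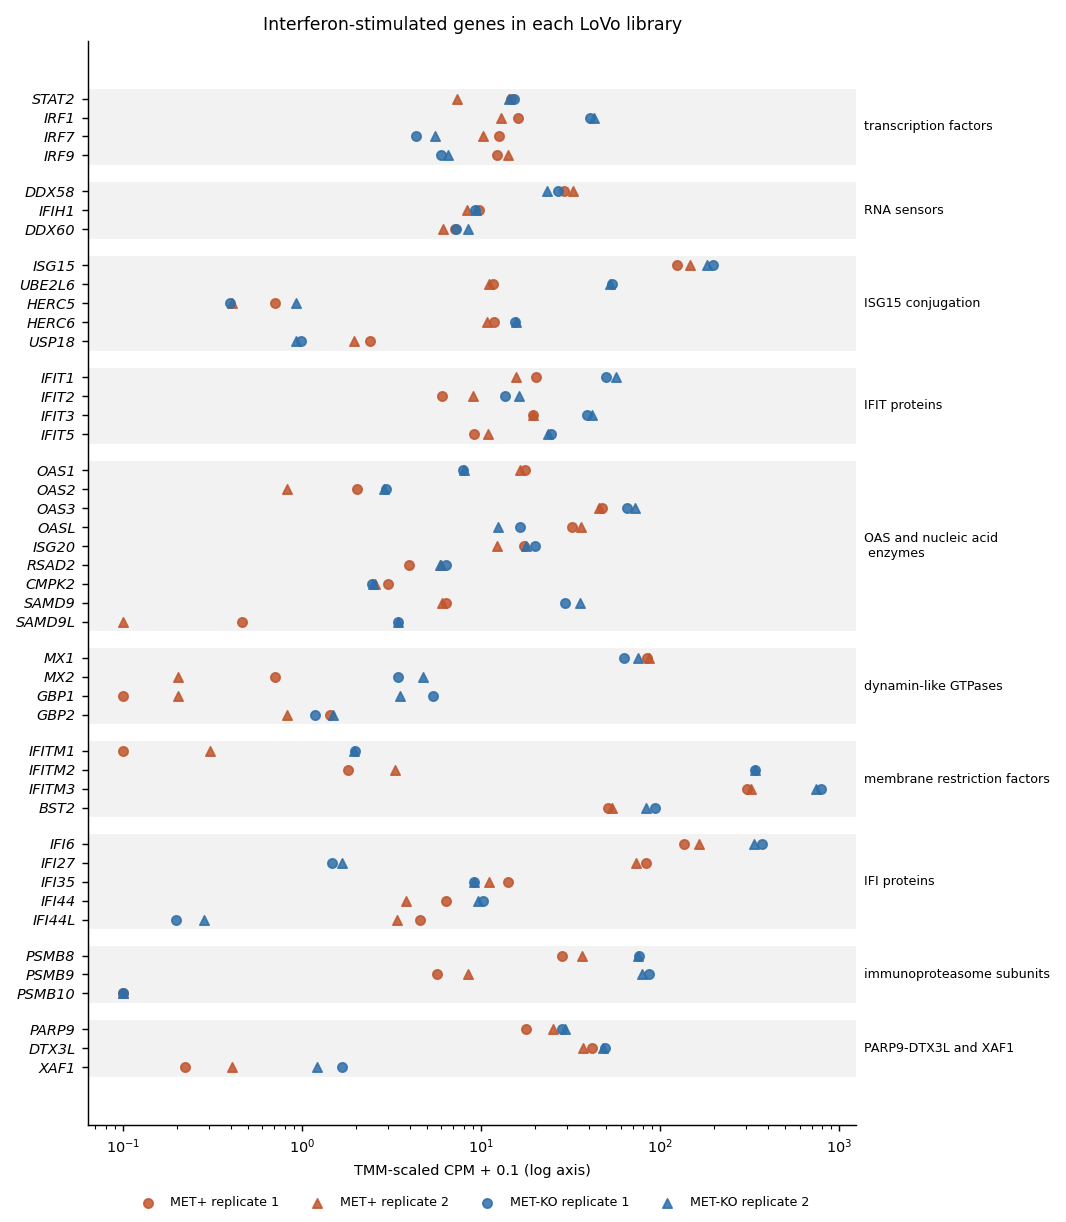
Level of each of the 44 interferon-stimulated genes in the 4 libraries, as TMM-scaled CPM plus 0.1 on a log axis, grouped by role (circles, replicate 1, triangles, replicate 2, orange, MET+, blue, MET-KO). IFITM2 and IFI27 show the widest gaps between the groups, in opposite directions, and PSMB10 lies at 0 in every library.

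**Figure D2:**
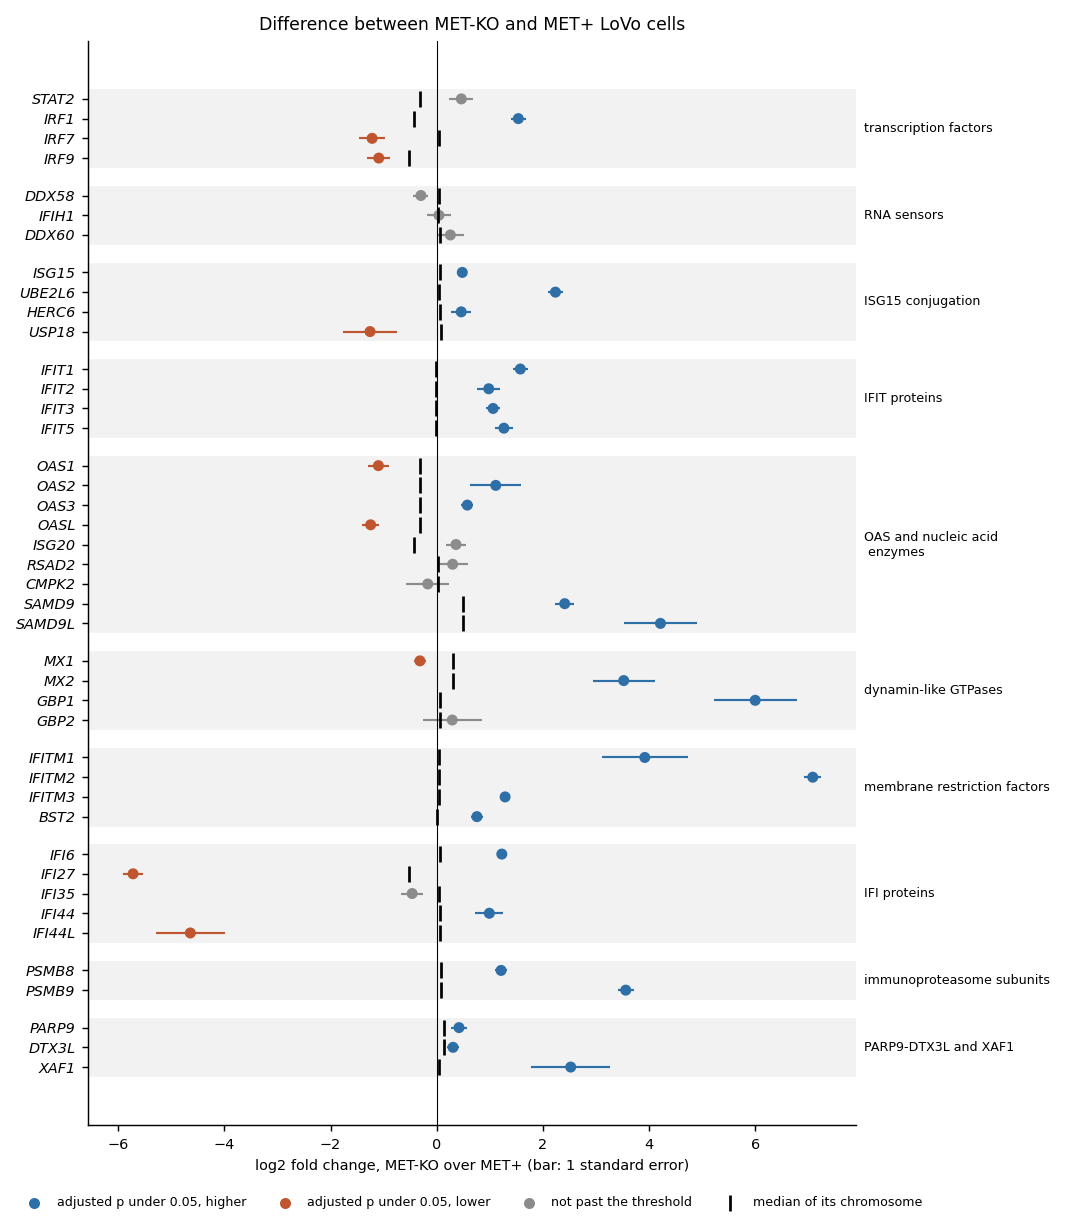
Log2 fold change of MET-KO over MET+ for the 42 tested interferon-stimulated genes, with 1 standard error from the edgeR fit, blue for genes called higher, orange for genes called lower and grey for the rest (black ticks, median of all tested genes on the same chromosome). The 25 higher genes include every tested IFIT, membrane and immunoproteasome gene, while the 8 lower genes are spread over 5 of the roles.

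The promoters of these genes are shown here because the interferon-stimulated response element is the DNA motif that the pathway is known to use. RefSeq promoters (build GRCh38.p14, 250 bases before to 50 bases after each start site) were found for 36 of the 44 genes, and not for GBP2, MX2, OAS2, OASL, IFIT2, USP18, IFITM2 and IRF7. The core of the element was searched as GAAA, any 2 bases and GAAA on both strands, and it lay in 24 of the 36 genes (66.7%) and in 1192 of 27195 genes with a promoter of the same length (4.38%). Genes with several start sites have more windows. Windows of 30 bases, written 5′ to 3′ on the strand of the gene with the match in capitals, are given for 5 genes that rose and for 3 that fell.
IFIT1 (chr10:89392510-89392539, + strand): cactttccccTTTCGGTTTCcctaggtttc
SAMD9 (chr7:93118096-93118125, - strand): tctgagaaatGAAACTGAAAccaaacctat
GBP1 (chr1:89065316-89065345, - strand): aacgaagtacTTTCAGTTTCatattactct
IFITM3 (chr11:320876-320905, - strand): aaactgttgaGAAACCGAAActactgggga
PSMB8 (chr6:32844032-32844061, - strand): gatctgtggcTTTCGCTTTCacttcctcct
IFI27 (chr14:94110618-94110647, + strand): atgtctgcagTTTCGGTTTCctggaaaatg
IFI44L (chr1:78620365-78620394, + strand): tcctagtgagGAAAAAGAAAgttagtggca
MX1 (chr21:41420559-41420588, + strand): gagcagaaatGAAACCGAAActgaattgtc
Where the capitals begin with TTTC, as in IFIT1 and GBP1, the motif lies on the opposite strand. The match began 103 bases before the start site in IFIT1, 136 in SAMD9, 127 in GBP1, 35 in IFITM3, 4 in PSMB8, 108 in IFI27 and 73 in IFI44L, and 11 bases after it in MX1. Both directions of change occurred with and without these letters. Among the 24 genes with a match 15 rose, 3 fell, 4 did not pass and 2 were not tested (median log2 fold change 0.67). Among the 12 genes without one 6 rose, 2 fell and 4 did not pass (median 0.46). The gamma-activated site, searched as TTCNNNGAA on both strands, lay in 10 of the 36 genes (27.8%) and in 9.38% of all genes with a promoter, and of these 10 genes 4 rose, 4 fell and 2 did not pass. A match is a run of letters in a window, and binding was not measured.

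The transcription factors of the response moved in opposite directions. IRF1 (ENSG00000125347, chromosome 5, 132481609 to 132490798), which binds interferon response elements and is itself induced by type II interferon, had 16.0 and 12.8 CPM in MET+ and 40.6 and 42.5 CPM in MET-KO libraries, or 14.4 ± 2.21 and 41.5 ± 1.31 CPM (mean ± SD, n = 2 each). Both MET-KO libraries exceeded both MET+ libraries (log2 fold change 1.54, SE 0.15, edgeR adjusted p = 8.1e-11), on a chromosome whose median was -0.43. IRF9, the DNA-binding partner of STAT2, had 12.2 and 14.1 CPM in MET+ and 5.88 and 6.45 CPM in MET-KO libraries. It fell in both MET-KO libraries (log2 fold change -1.09, SE 0.22, edgeR adjusted p = 7.95e-05), and its chromosome 14 had a median of -0.52. The last 500 exonic bases of IRF9 lie entirely within exons of AL136295.5 on the same strand, a gene with 0 counts in every library. Whether reads lying in both genes were left uncounted was not tested, so this 0 does not settle how complete the IRF9 counts are. IRF7, which drives type I interferon genes themselves, had 12.4 and 10.2 CPM in MET+ and 4.22 and 5.43 CPM in MET-KO libraries, without overlap (log2 fold change -1.22, SE 0.25, edgeR adjusted p = 8.43e-05). For STAT2, 1 MET+ library was as high as the MET-KO libraries, with 14.5 and 7.18 CPM in MET+ and 15.2 and 14.3 CPM in MET-KO. STAT2 did not pass the test (log2 fold change 0.46, SE 0.22, edgeR adjusted p = 0.0797), but its log2 fold change was 1.04 without MET+ replicate 1 and 0.01 without MET+ replicate 2, and its adjusted p ranged from 8.33e-05 to 0.965 over all alternatives.

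None of the 3 RNA sensors passed the test. DDX58, which codes for RIG-I, had 28.9 and 32.3 CPM in MET+ and 26.8 and 23.1 CPM in MET-KO libraries, lower in both MET-KO libraries but short of the threshold (log2 fold change -0.30, SE 0.14, edgeR adjusted p = 0.0707). IFIH1, which codes for MDA5, had 9.67 and 8.21 CPM in MET+ and 9.12 and 9.21 CPM in MET-KO libraries, and the groups overlapped (log2 fold change 0.04, SE 0.22, edgeR adjusted p = 0.894). DDX60, a helicase linked to RIG-I signaling, had 7.01 and 6.06 CPM in MET+ and 7.16 and 8.38 CPM in MET-KO libraries (log2 fold change 0.26, SE 0.25, edgeR adjusted p = 0.403). DDX58 passed when MET+ replicate 1 was left out, with an adjusted p from 0.0461 to 0.407 over all alternatives.

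The ISG15 system rose in part. ISG15 (ENSG00000187608, chromosome 1, 1001138 to 1014540), a ubiquitin-like protein that is attached to other proteins, had 124 and 147 CPM in MET+ and 196 and 181 CPM in MET-KO libraries. The rise was small but present in both MET-KO libraries (log2 fold change 0.48, SE 0.10, edgeR adjusted p = 9.32e-05). UBE2L6 (ENSG00000156587, chromosome 11, 57551656 to 57568284), the E2 enzyme that carries ISG15, had 11.6 and 11.0 CPM in MET+ and 53.9 and 52.3 CPM in MET-KO libraries, or 11.3 ± 0.437 and 53.1 ± 1.15 CPM (mean ± SD, n = 2 each). This was a 4.71-fold rise with no overlap (log2 fold change 2.23, SE 0.14, edgeR adjusted p = 2.43e-15). Of the ligases, HERC6 had 11.7 and 10.7 CPM in MET+ and 15.3 and 15.5 CPM in MET-KO libraries (log2 fold change 0.46, SE 0.19, edgeR adjusted p = 0.0372), and HERC5, the main human ISG15 ligase, had 5 and 3 reads in MET+ and 3 and 9 reads in MET-KO libraries and was not tested. The HERC6 call was lost without MET+ replicate 2, MET-KO replicate 1 or MET-KO replicate 2 (adjusted p 0.0147 to 0.222 over all alternatives). USP18, the protease that removes ISG15 and also restrains the type I interferon receptor, had only 19 and 18 reads in MET+ and 9 and 9 reads in MET-KO libraries. It was called lower (log2 fold change -1.26, SE 0.51, edgeR adjusted p = 0.0373), a call lost when any of the 4 libraries was left out (adjusted p 0.0372 to 0.254 over all alternatives), and a near-identical copy, USP41, could share its reads.

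All 4 IFIT genes rose, with log2 fold changes of 0.98 to 1.57. They code for proteins that bind viral RNA and lie side by side on chromosome 10 between 89283694 and 89421001. IFIT1 (ENSG00000185745) had 20.2 and 15.6 CPM in MET+ and 49.7 and 56.2 CPM in MET-KO libraries (log2 fold change 1.57, SE 0.14, edgeR adjusted p = 1.14e-11). IFIT3 had 19.3 and 19.3 CPM in MET+ and 39.0 and 41.5 CPM in MET-KO libraries (log2 fold change 1.06, SE 0.14, edgeR adjusted p = 4.34e-08). IFIT5 had 9.06 and 10.8 CPM in MET+ and 24.4 and 23.5 CPM in MET-KO libraries (log2 fold change 1.26, SE 0.18, edgeR adjusted p = 1.99e-07). In each case both MET-KO libraries were above both MET+ libraries by more than the replicates differed. IFIT2 was the least even, with 5.92 and 8.93 CPM in MET+ and 13.4 and 16.1 CPM in MET-KO libraries, yet without overlap (log2 fold change 0.98, SE 0.22, edgeR adjusted p = 0.000263). The median log2 fold change over all 538 tested genes of chromosome 10 was -0.01.

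The OAS enzymes, which make the short oligoadenylates that activate RNase L, changed in both directions although 3 of them are neighbours. OAS1 (ENSG00000089127, chromosome 12, 112906777 to 112933222) had 17.5 and 16.3 CPM in MET+ and 7.84 and 7.92 CPM in MET-KO libraries, and fell in both (log2 fold change -1.10, SE 0.20, edgeR adjusted p = 1.43e-05). OAS3 (ENSG00000111331, chromosome 12, 112938352 to 112973249), the next gene downstream, had 47.0 and 45.5 CPM in MET+ and 65.5 and 72.2 CPM in MET-KO libraries, and rose in both (log2 fold change 0.58, SE 0.11, edgeR adjusted p = 4.03e-05). OAS2, which follows OAS3, had 16 and 7 reads in MET+ and 29 and 30 reads in MET-KO libraries (log2 fold change 1.11, SE 0.48, edgeR adjusted p = 0.0482). With so few reads the OAS2 call was lost without MET+ replicate 2, where the log2 fold change was 0.52, and without either MET-KO library, while without MET+ replicate 1 it was 1.95 (adjusted p 0.00735 to 0.432 over all alternatives). OASL, an OAS-like protein without this enzymatic activity that binds RIG-I, had 32.1 and 35.9 CPM in MET+ and 16.5 and 12.3 CPM in MET-KO libraries, without overlap (log2 fold change -1.24, SE 0.16, edgeR adjusted p = 3.11e-08). The median of chromosome 12, which carries all 4, was -0.32.

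SAMD9 and SAMD9L, paired genes on chromosome 7 whose proteins restrict poxviruses and cell growth, were among the strongest risers. SAMD9 (ENSG00000205413, chromosome 7, 93099513 to 93118023) had 6.28 and 5.95 CPM in MET+ and 29.2 and 35.7 CPM in MET-KO libraries, or 6.12 ± 0.234 and 32.5 ± 4.60 CPM (mean ± SD, n = 2 each). The MET-KO libraries lay 5.31-fold above the MET+ libraries (log2 fold change 2.41, SE 0.18, edgeR adjusted p = 3.05e-13), against a median of 0.50 for chromosome 7, which was raised as a whole. SAMD9L had 3 and 0 reads in MET+ and 34 and 36 reads in MET-KO libraries, a ratio of 19.96 (exact 95% interval 6.56 to 99.1) that covers counting error only (edgeR adjusted p = 4.34e-06). The MET+ counts lie at or under the limit of 3 counts, so its fitted log2 fold change moved from 4.21 to 8.10 without MET+ replicate 1 and to 3.14 without MET+ replicate 2, with the call kept. The 3 remaining enzymes of this group did not pass. ISG20, an exonuclease, had 17.2 and 12.1 CPM in MET+ and 19.8 and 17.6 CPM in MET-KO libraries (log2 fold change 0.36, SE 0.18, edgeR adjusted p = 0.0901), and it passed without MET+ replicate 1 (adjusted p 0.00684 to 0.669 over all alternatives). RSAD2, or viperin, and its overlapping neighbour CMPK2, a nucleotide kinase, are usually induced together. RSAD2 had 3.87 and 5.85 CPM in MET+ and 6.28 and 5.80 CPM in MET-KO libraries (edgeR adjusted p = 0.401), and CMPK2 had 24 and 24 reads in MET+ and 24 and 26 reads in MET-KO libraries (edgeR adjusted p = 0.751).

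Among the dynamin-like GTPases the rise was carried by genes nearly silent in MET+ cells. GBP1 (ENSG00000117228, chromosome 1, 89052319 to 89065360), which coats intracellular pathogens and is a sensitive target of type II interferon, had 0 and 1 reads in MET+ and 54 and 37 reads in MET-KO libraries. This is a ratio of 77.9 (exact 95% interval 13.6 to 3109) with an edgeR adjusted p of 6.31e-08, at a mean of 4.35 CPM in MET-KO cells. MX2, which blocks nuclear import of retroviral genomes, had 5 and 1 reads in MET+ and 34 and 50 reads in MET-KO libraries, a ratio of 11.98 (exact 95% interval 5.28 to 33.6) with an edgeR adjusted p of 5.3e-06. Both calls were kept whichever library was left out, although the fitted log2 fold change of GBP1 ranged from 5.24 without MET+ replicate 1 to 8.41 without MET+ replicate 2, and that of MX2 from 2.69 without MET+ replicate 2 to 5.12 without MET+ replicate 1. MX1, the paralog of MX2 and a classical marker of interferon exposure, had 84.3 and 86.3 CPM in MET+ and 62.3 and 74.7 CPM in MET-KO libraries. It was called lower (log2 fold change -0.32, SE 0.11, edgeR adjusted p = 0.0122) on a chromosome with a median of 0.30. The MX1 call was lost without MET+ replicate 2 or MET-KO replicate 1. It was also lost with library totals (edgeR adjusted p = 0.106) and under the DESeq2 Wald test (adjusted p = 0.0716). GBP2 stayed low, with 11 and 7 reads in MET+ and 11 and 15 reads in MET-KO libraries, and did not pass (log2 fold change 0.29, SE 0.55, edgeR adjusted p = 0.686).

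All 4 membrane restriction factors rose. The IFITM proteins block fusion of enveloped viruses with cell membranes. IFITM2 (ENSG00000185201, chromosome 11, 307631 to 315272) had 14 and 31 reads, or 1.69 and 3.18 CPM, in MET+ libraries and 3470 and 3661 reads, or 340.2 and 337 CPM, in MET-KO libraries. It went from near absence to the level of an abundant mRNA, with no overlap (log2 fold change 7.08, SE 0.16, edgeR adjusted p = 7.52e-28). IFITM3 (ENSG00000142089, chromosome 11, 319669 to 327537), already abundant in MET+ cells at 306 and 321 CPM, reached 792 and 738 CPM in MET-KO libraries (log2 fold change 1.29, SE 0.09, edgeR adjusted p = 6.07e-14). IFITM1 had 0 and 2 reads in MET+ and 19 and 20 reads in MET-KO libraries, a ratio of 16.7 (exact 95% interval 4.32 to 143) with an edgeR adjusted p of 0.000117. Its fitted log2 fold change was 3.10 without MET+ replicate 1 and 7.19 without MET+ replicate 2, still called. In the GENCODE annotation IFITM1 and IFITM2 share 70.2% of their last 500 exonic bases on the same strand, and reads there cannot be divided between them with certainty. Taken as 1 unit they had 14 and 33 reads in MET+ and 3489 and 3681 reads in MET-KO libraries. Reads left uncounted because they lie in both genes would be missing from these sums. BST2, or tetherin, which holds budding virus at the cell surface, had 50.9 and 53.7 CPM in MET+ and 93.4 and 83.3 CPM in MET-KO libraries, a moderate rise without overlap (log2 fold change 0.76, SE 0.11, edgeR adjusted p = 2.8e-07).

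The small IFI genes changed in both directions, with strong falls of IFI27 and IFI44L. IFI27 (ENSG00000165949, chromosome 14, 94104836 to 94116698), a mitochondrial protein and one of the most responsive genes to type I interferon, had 688 and 714 reads, or 83.1 and 73.3 CPM, in MET+ libraries and 14 and 17 reads, or 1.37 and 1.57 CPM, in MET-KO libraries. It was 52.6-fold lower in MET-KO cells, and every MET-KO value lay far below every MET+ value (log2 fold change -5.72, SE 0.19, edgeR adjusted p = 2.36e-23). Against the median of its own chromosome 14 the difference was -5.20 on the log2 scale. IFI6 (ENSG00000126709, chromosome 1, 27666061 to 27672218), a relative of IFI27 that protects cells from apoptosis, went the other way, with 136 and 164 CPM in MET+ and 370.4 and 334 CPM in MET-KO libraries (log2 fold change 1.22, SE 0.10, edgeR adjusted p = 1.31e-12). IFI44L (ENSG00000137959, chromosome 1, 78619922 to 78646145) had 37 and 32 reads in MET+ and 1 and 2 reads in MET-KO libraries, so that MET+ was higher by a ratio of 26.9 (exact 95% interval 8.82 to 134, edgeR adjusted p = 2.33e-07). Its paralog IFI44, which begins 3650 bases downstream on the same strand, rose from 6.28 and 3.70 CPM in MET+ to 10.1 and 9.48 CPM in MET-KO libraries (log2 fold change 0.99, SE 0.26, edgeR adjusted p = 0.00182). The IFI44 call was lost without MET+ replicate 2, where the log2 fold change was 0.63 (adjusted p 1.89e-05 to 0.0553 over all alternatives). IFI35 had 14.0 and 11.0 CPM in MET+ and 9.02 and 9.02 CPM in MET-KO libraries and did not pass (log2 fold change -0.46, SE 0.21, edgeR adjusted p = 0.0597), except without MET+ replicate 2 (adjusted p 0.018 to 0.343 over all alternatives).

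The 2 measured immunoproteasome subunits rose, and of the 3 constitutive catalytic subunits looked at, PSMB5, PSMB6 and PSMB7, none was called higher. PSMB8 and PSMB9 take the places of PSMB5 and PSMB6 in the proteasome and shift its cuts toward peptides that fit MHC class I. PSMB9 (ENSG00000240065, chromosome 6, 32844136 to 32859585) had 5.56 and 8.31 CPM in MET+ and 86.8 and 78.9 CPM in MET-KO libraries, or 6.94 ± 1.95 and 82.8 ± 5.56 CPM (mean ± SD, n = 2 each). This 11.8-fold rise was shared by both MET-KO libraries (log2 fold change 3.56, SE 0.15, edgeR adjusted p = 5.45e-20). PSMB8 (ENSG00000204264, chromosome 6, 32840717 to 32844703) had 28.3 and 36.5 CPM in MET+ and 75.6 and 75.1 CPM in MET-KO libraries (log2 fold change 1.21, SE 0.12, edgeR adjusted p = 1.87e-10). Of the constitutive subunits, PSMB6 (log2 fold change -0.05, edgeR adjusted p = 0.655) and PSMB7 (0.15, adjusted p = 0.181) did not pass, and PSMB5 fell slightly (-0.31, adjusted p = 0.00382) on chromosome 14. Set against the subunit it replaces, PSMB9 stood at 2.79% and 3.83% of the PSMB6 level in MET+ and at 42.6% and 39.8% in MET-KO libraries. PSMB8 stood at 10.2% and 13.4% of the PSMB5 level in MET+ and at 34.8% and 33.1% in MET-KO libraries. These shares compare 3′ read levels of different genes and are not protein ratios. PSMB10, the last immunoproteasome subunit, had 0 counts in every library, and 94.6% of its last 500 exonic bases lie within AC040162.1 on the same strand, which had 3 counts in 1 MET-KO library and 0 in the others. Whether reads lying in both genes were left uncounted was not tested, so the 0 counts do not show that PSMB10 is not expressed. TAP1 and TAP2, which carry peptides to MHC class I and neighbour PSMB8 and PSMB9, also rose. TAP1 had 18.2 and 16.2 CPM in MET+ and 41.5 and 40.1 CPM in MET-KO libraries (log2 fold change 1.25, edgeR adjusted p = 2.8e-09), and TAP2 had 76.5 and 79.1 CPM in MET+ and 120.2 and 107 CPM in MET-KO libraries (log2 fold change 0.55, edgeR adjusted p = 2.16e-05). The proteasome activators PSME1 (-0.04, adjusted p = 0.703) and PSME2 (-0.14, adjusted p = 0.199), other interferon targets, did not pass.

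**Figure D3:**
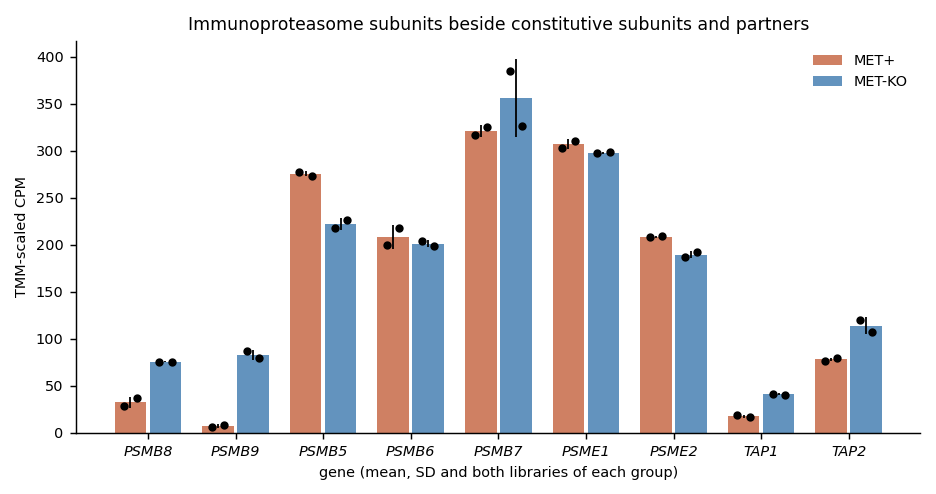
TMM-scaled CPM of the immunoproteasome subunits PSMB8 and PSMB9, the constitutive subunits PSMB5, PSMB6 and PSMB7, the activators PSME1 and PSME2 and the transporters TAP1 and TAP2 (bars, mean of 2 libraries, error bars, SD, points, libraries). PSMB8, PSMB9, TAP1 and TAP2 are higher in MET-KO libraries, and PSMB5 is lower.

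PARP9 and DTX3L, which form an ADP-ribosyltransferase and ubiquitin ligase complex and share a bidirectional promoter region, rose slightly. PARP9 had 17.8 and 24.9 CPM in MET+ and 28.1 and 29.3 CPM in MET-KO libraries (log2 fold change 0.42, SE 0.15, edgeR adjusted p = 0.0212), and DTX3L had 41.4 and 37.0 CPM in MET+ and 49.1 and 47.7 CPM in MET-KO libraries (log2 fold change 0.31, SE 0.12, edgeR adjusted p = 0.0277). Both calls depended on single libraries. PARP9 was not called without MET+ replicate 1, where its log2 fold change was 0.21, or without MET-KO replicate 2 (adjusted p 0.000772 to 0.316 over all alternatives). DTX3L was not called without MET+ replicate 2 or either MET-KO library (adjusted p 0.00587 to 0.24 over all alternatives). XAF1, a proapoptotic protein, had 1 and 3 reads in MET+ and 16 and 12 reads in MET-KO libraries, a ratio of 5.99 (exact 95% interval 2.10 to 23.5). The groups did not overlap (log2 fold change 2.52, SE 0.74, edgeR adjusted p = 0.00442). The XAF1 call was lost without MET+ replicate 1 or MET-KO replicate 1 (adjusted p 0.0024 to 0.133 over all alternatives), its log2 fold change was 3.32 without MET+ replicate 2, and its 3′ end lies opposite the antisense gene PRAL.

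Many of these genes sit in small families, and neighbours did not always move together. With a limit of 100000 bases between genes, 26 of the 44 fell into 11 groups of neighbours. In 5 groups every gene was called higher: the IFIT group on chromosome 10, the IFITM group on chromosome 11, PARP9 with DTX3L on chromosome 3, PSMB8 with PSMB9 on chromosome 6 and SAMD9 with SAMD9L on chromosome 7. In 3 groups called genes went both ways. IFI44L fell beside a rise of IFI44, OAS1 fell beside rises of OAS3 and OAS2, and MX1 fell beside a rise of MX2, whose end lies 10913 bases before MX1 on the same strand. GBP1 rose with GBP2 not called, HERC6 rose with HERC5 not tested, and neither RSAD2 nor CMPK2 passed.

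**Figure D4:**
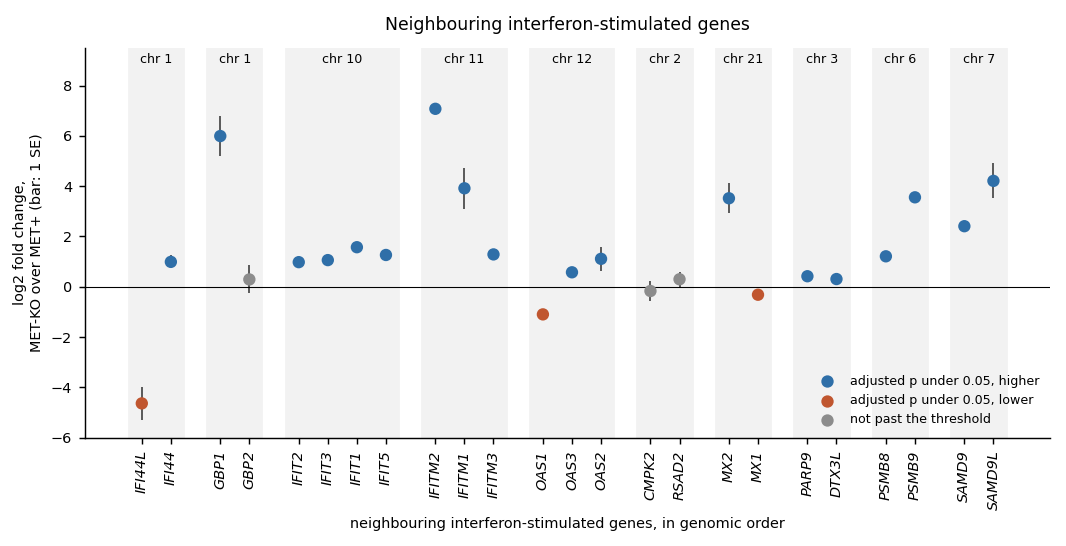
Log2 fold change of MET-KO over MET+ for tested interferon-stimulated genes that lie within 100000 bases of another, in genomic order and shaded by group, with 1 standard error (blue, called higher, orange, called lower, grey, not past the threshold). The IFI44L, OAS1 and MX1 points lie below 0 beside neighbours above it.

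A further 88 genes of the interferon pathway moved in both directions. They include 33 other interferon-stimulated genes, described below, and the proteasome and peptide transporter genes above. Of the 61 tested, 21 rose and 8 fell (47.5% called, beside 54.1% of all genes), with a median log2 fold change of 0.17. The share that rose was 34.4%, beside 27.2% of all genes, and the share that fell 13.1%, beside 26.9%. The other interferon-stimulated genes gave 13 of the 21 rises and 1 of the 8 falls. The interferon genes themselves were at or near 0. Of 21 interferon genes 18 had 0 counts in every library, which allows up to 3 counts or 0.276 to 0.363 CPM each, and the highest value was 7 counts of IFNE in MET+ replicate 1. IFNB1 had 1 count in MET-KO replicate 1, and IFNL1 had 2 and 3 reads in MET+ and 2 and 0 in MET-KO libraries. Of 6 receptor chains, IFNGR2 of the type II receptor rose slightly (log2 fold change 0.35, edgeR adjusted p = 0.0206), and IFNLR1 of the type III receptor fell (-0.88, adjusted p = 0.000783). Chromosome 21, which carries IFNGR2, had a median of 0.30, close to the rise of this gene. The IFNGR2 call was lost without MET+ replicate 2 or MET-KO replicate 1 (adjusted p 0.00144 to 0.402 over all alternatives). IFNAR1 (-0.06), IFNAR2 (0.10), IFNGR1 (0.06) and IL10RB (-0.37) did not pass. STAT3, which serves mainly the interleukin-6 family, rose (log2 fold change 0.93, edgeR adjusted p = 5.78e-08). JAK1 (0.19), JAK2 (-0.56) and TYK2 (0.17) did not pass. Of 10 genes linked to nucleic acid sensing, the kinases IKBKE and TBK1 (log2 fold change 0.72) rose, and the adaptor MAVS (-0.43) and the ligase TRIM25 (-0.24) fell. The TRIM25 call was lost without MET+ replicate 1, MET+ replicate 2 or MET-KO replicate 2, and with library totals (edgeR adjusted p = 0.27). IKBKE had 8 and 21 reads in MET+ and 143 and 134 reads in MET-KO libraries (log2 fold change 3.03, 3.74 without MET+ replicate 2, edgeR adjusted p = 3.1e-10). It had enough reads for testing in both MET-KO libraries but in only 1 MET+ library, which favoured a wide gap. Of 6 negative regulators, SOCS3 fell (log2 fold change -1.04, edgeR adjusted p = 3.52e-05) with PIAS1 (-0.38) and IRF2BP1 (-0.70). The fall of PIAS1 was no larger than that of its chromosome 15, whose median was -0.43. IRF2, a repressor that competes with IRF1, rose (0.80), a call lost under the DESeq2 Wald test (adjusted p 0.00164 to 0.0773 over all alternatives). The PIAS1 call was lost without MET+ replicate 1 or MET-KO replicate 2 (adjusted p 0.00712 to 0.0922 over all alternatives), and that of IRF2BP1 without MET+ replicate 1 or either MET-KO library (0.0204 to 0.181).

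**Figure D5:**
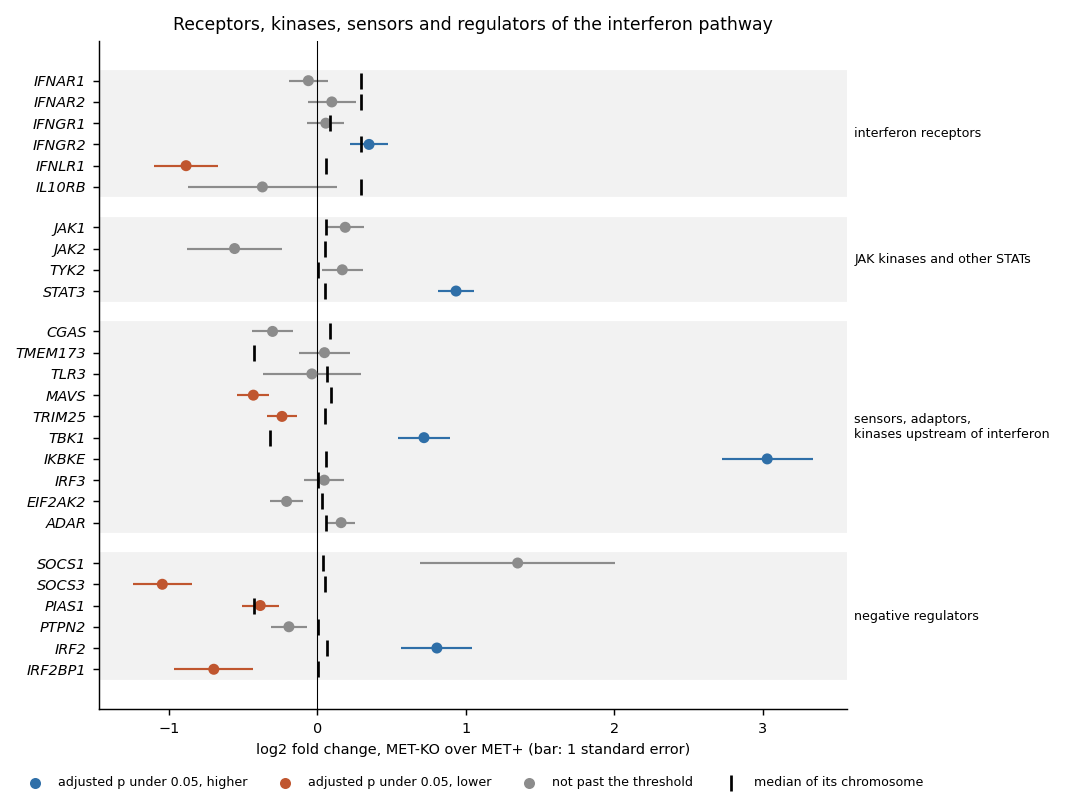
Log2 fold change of MET-KO over MET+ for tested receptors, kinases, sensors and negative regulators of the interferon pathway, with 1 standard error and the median of each gene's chromosome as a black tick (blue, called higher, orange, called lower, grey, not past the threshold). IKBKE, with enough reads for testing in only 1 MET+ library, stands apart at 3.03. The receptor chains IFNAR1, IFNAR2 and IFNGR1 lie near 0, and IFNLR1 lies at -0.88.

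Interferon-stimulated genes outside the 44 also rose more often than they fell. Of 33 such genes, part of the 88 above, 27 were tested. Of these 13 rose, 1 fell and 13 did not pass, with a median log2 fold change of 0.44. The called share was 51.9%, beside 54.1% of all genes tested, and the share that rose 48.1%, beside 27.2%. A change of at least 1 log2 unit was reached by 7, all of them upward. This is 25.9% of the 27 and near the 24.3% of all genes tested. RTP4 and TRIM22 among them had enough reads for testing only in MET-KO, which favoured a wide gap. RTP4, a chaperone and brake of the interferon response, had 0 and 4 reads in MET+ and 48 and 58 reads in MET-KO libraries, and TRIM22, an antiviral ligase, had 0 and 4 reads in MET+ and 30 and 22 in MET-KO libraries. Both were near absent in MET+ and present in both MET-KO libraries (edgeR adjusted p = 1.53e-07 and 0.000106), and their fitted log2 fold changes were 3.58 and 2.56 without MET+ replicate 1 and 8.62 and 7.60 without MET+ replicate 2. APOL1 rose from 6.77 and 6.26 CPM in MET+ to 17.4 and 14.7 CPM in MET-KO libraries (log2 fold change 1.30, SE 0.21, edgeR adjusted p = 2.89e-06), and PARP14 from 32.6 and 30.4 to 58.3 and 73.7 CPM (log2 fold change 1.07, SE 0.12, edgeR adjusted p = 5.51e-09). The others were LAMP3 (log2 fold change 1.26), PARP12 (1.06) and APOL2, which rose from 10.5 and 12.1 CPM in MET+ to 23.8 and 26.8 CPM in MET-KO libraries. PLSCR1, a scramblase with antiviral activity, was the gene that fell, from 32.9 and 26.7 CPM in MET+ to 16.0 and 17.6 CPM in MET-KO libraries (log2 fold change -0.82, SE 0.15, edgeR adjusted p = 2.99e-05).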

How the data were processed

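RNA sequencing (QuantSeq 3′ mRNA-Seq FWD, Lexogen) covered 2 MET+ and 2 MET-KO libraries. The files deposited by the authors hold whole-number read counts per gene, without normalization, for 58825 genes and 99 spike-in rows, all at 0 counts. The submitters' processing notes name bcl2fastq, cutadapt 1.16, FastQC 0.11.7, MultiQC 1.5, STAR 2.5.4a, featureCounts 1.6.2, DESeq2 1.18.1 and build GRCh38. Annotation version and strand setting are not given in the sources used here, so reads of overlapping or antisense genes may be misassigned or left uncounted. Names and positions came from GENCODE 29 (58552 IDs found).

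Counts were tested in R 4.3.3 with edgeR 4.0.16 (filterByExpr, TMM, quasi-likelihood test, group as the only term), with Benjamini-Hochberg adjustment over 13801 genes and a threshold of 0.05. Standard errors (SE) were back-calculated from the edgeR test, as the absolute log2 fold change divided by the square root of its F statistic. Where a group summed to at most 10 counts, the ratio has an exact binomial interval (95%), which covers counting error only. P-values measure the spread between these samples, which the labels call biological replicates, and an exact permutation test of 2 against 2 cannot go below 0.333. On simulated counts with 200 genes changed by a log2 fold of 2, edgeR recovered 197 with 9 false calls, and DESeq2 179 with 2. The simulation gave all 13801 genes the same dispersion and changed few of them, while 54.1% were called in the data. It therefore does not give the error rate of the calls reported here. Alternatives were DESeq2 1.42.0 size factors and Wald test, library totals, other filters, a replicate block, a fold threshold, chromosome medians and leaving out each library. Named genes are all 44, the tested receptors, JAK kinases and STATs, and genes of the other lists past the threshold that changed by at least 1 log2 unit. Those of smaller change (TBK1, MAVS, TRIM25, PIAS1, IRF2BP1, IRF2, PLSCR1, TAP2 and the PSMB and PSME genes outside the 44) were named after their values were seen, and 1 gene of these lists is not reported here. Genes, lists and tests were chosen with earlier results of these data known. Python 3.11.15 and matplotlib 3.10.9 made the figures.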

Additional observations from a re-analysis of the deposited data

How the results depend on the processing

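Of the 33 called interferon-stimulated genes, 25 kept their call in every alternative fit in which they were tested. HERC6, USP18, OAS2, MX1, IFI44, PARP9, DTX3L and XAF1 lost it in some. The fold threshold is left out of this count, and ISG15, OAS3, BST2 and IFIT2 among the 25 fell short of it. The number called was 33 of 42 with DESeq2 size factors (7482 of 13801 genes in all) or library totals (7361 of 13801). It was 30 of 43 without a filter (7547 of 23153 genes in all). With at least 10 counts in every library it was 25 of 33 (6219 of 11844 genes in all). The DESeq2 Wald test called 26 of 43 (5433 of 16423 genes in all). It did not call HERC6, USP18, OAS2, MX1, PARP9, DTX3L and XAF1, nor the pathway genes IFNGR2, TRIM25, PIAS1, IRF2BP1 and IRF2. Library totals lost the calls of USP18, MX1, TRIM25, PIAS1 and IRF2BP1. Those of HERC6, USP18, DTX3L and TRIM25 were lost without a filter, and those of USP18, OAS2, DTX3L and TRIM25 with a replicate block. With library totals 27 were higher and 6 lower, a share of higher calls of 81.8% in place of 75.8%. No label ties same-numbered libraries, and they did not deviate together (correlation -0.05, 2 pairs). With a replicate block, 31 were called (7055 of 13801 genes in all). Library totals alone raised the median of all genes by 0.10 and the median of the interferon-stimulated genes to 0.63, and leaving out a library gave 0.52 to 0.73. Subtracting chromosome medians gave 0.78. With a change of at least 1 log2 unit also required, 24 were called, and of the further pathway genes 10 (9 higher, 1 lower). These are 57.1% of the 42 interferon-stimulated genes tested and 16.4% of the 61 pathway genes tested, beside 24.3% of all genes tested. The 8 lower pathway genes became 5 with library totals or the DESeq2 Wald test. Leaving out a library gave 25 to 32 pathway calls, 18 to 23 higher and 5 to 9 lower. The log2 fold changes of IFIH1 (-0.085 to 0.16) and GBP2 (-0.12 to 0.77) turned negative without MET+ replicate 2, with the highest value without MET+ replicate 1, and neither gene was called in any of these fits. The cause was not tested. Depth limits genes under about 10 counts a library, where a fold against MET+ is loosely bounded.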
